A study of Homo sapiens with 2 samples.

Results

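Interferon-stimulated genes are the 43 genes chosen here by symbol, out of 18930 genes in the deposited table, and all 43 had counts and passed the filter on low counts. They comprise antiviral effectors, the ISG15 conjugation system, guanylate-binding proteins, and the transcription factors that drive them. Interferons bind receptors that signal through the kinases JAK1, JAK2 and TYK2. For the alpha, beta and lambda interferons, JAK1 and TYK2 activate a complex that holds STAT2 and IRF9 and binds the interferon-stimulated response element (ISRE) in promoters. Interferon gamma signals through JAK1 and JAK2 and acts on the gamma-activated site, and IRF1 and IRF7 are further factors of interferon responses. Many cells keep a low tonic level of these genes without added interferon.

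The data were 2 RNA-seq libraries, 1 labelled DR and 1 labelled WT. Both carry the labels skin, melanoma and A375, a human melanoma cell line, and the growth label gives DMEM with fetal bovine serum for each. DR stands for cells resistant to dacarbazine (DTIC), an alkylating drug, which the paper selected by raising the DTIC concentration over months and keeping the viable cells, and WT for the wild-type control. The treatment label, which spells the drug DITC, gives 105 days of it for both libraries, WT included. No label says whether the resistant cells were 1 clone or a mixed population. The count columns were assigned by the sample descriptions, which differ in 1 punctuation mark and do not mention wild type, so every direction below rests on those descriptions.

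The libraries held 54878355 and 35294670 estimated reads (DR and WT, the order used throughout). The labelled cell type was checked against its markers. Of 10 melanocyte markers 9 had counts, with a median of 0.216 and 0.488 CPM (reads scaled to library size), and a summed level of 41.8 and 41.3 CPM, most of it MITF (1922 and 1211 reads). PMEL had 248 and 82 reads, MLANA 123 and 89, and SOX10 3 and 0. The 12 plasma cell markers had a median of 385.8 and 253.7 CPM, and a summed level of 5401.6 and 6380.1 CPM. Most melanocyte markers were thus far below the plasma cell markers, which goes against the melanoma label, and the libraries are called by their labels only. Markers of other cells that could bring interferon-stimulated transcripts ranged widely. The summed level was 12.9 and 7.06 CPM for 6 T cell markers and 13.9 and 10.5 CPM for 6 monocyte and macrophage markers, among which FCGR3A and S100A8 had at most 3 reads in each library. The 4 plasmacytoid dendritic cell markers summed to 384.7 and 313.1 CPM, nearly all of it TCF4 (21346 and 10896 reads), while LILRA4 had 17 and 8 reads, CLEC4C 12 and 11, and GZMB 1 and 0. Of 6 fibroblast markers 4 had counts, with a summed level of 14.1 and 3.18 CPM. COL1A2 and COL3A1 had at most 1 read in each library, COL1A1 had 572 and 109, and PDGFRB had 209 and 1. The T cell markers did not differ alike. TRAT1 had 265 and 4 reads, CD3E 102 and 37, CD8A 207 and 98, and CD2 12 and 3. CD3D had 53 and 47 reads and CD3G 75 and 57, with log2 fold changes of -0.35 and -0.21. NK cell markers summed to 128.8 and 249.9 CPM, mostly NCAM1, and keratinocyte markers to 22.9 and 27.4 CPM. The part of such cells in the differences between the libraries was not tested.

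The comparison asked which interferon-stimulated genes differed in level between the libraries labelled DR and WT. Of the 43 genes, 12 were higher in the library labelled DR by a log2 fold change of at least 1, and 0 were lower by as much. The 12 were OAS1, OAS2, OAS3, GBP1, GBP2, IFITM1, IFI44, HERC5, IRF7, ISG20, PLSCR1 and TRIM22. Among all 16210 genes tested, 7.48% were higher and 4.16% lower by the same rule. The median log2 fold change of the 43 genes was 0.66, against 0.01 for all genes tested, and 37 of the 43 lay above 0, as did 51.1% of all genes tested. With 1 library per group there is no replicate check, so no p-value is given and each 95% interval (Clopper-Pearson) covers read counting only. Fold changes are on the log2 (CPM + 0.5) scale, which understates those of low genes, and in bulk libraries fewer cells expressing a gene and less RNA per cell cannot be told apart.

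The subset medians ran from -0.03 (PARP-DTX) to 1.74 (OAS). The OAS subset (median log2 fold change 1.74, 3 of 4 genes past the threshold) and the GBP subset (median 1.23, 2 of 3) lay highest. The IFITM subset had a median of 0.48, with IFITM1 alone of its 3 genes past the threshold, and the IFIT subset had a median of 0.05 with 0 of 4 genes past the threshold. Without the OAS and GBP genes, the other 36 had a median of 0.66, and 7 of them (19.4%) were past the threshold. These medians and counts rest on few genes, 7.48% of all genes tested were past the threshold upward, and differences between subsets were not tested. OASL (-0.12) and GBP4 (0.04) lay near 0, while IFITM1 (1.87), IFI44 (1.72), ISG20 (1.67) and PLSCR1 (1.37) of other subsets lay above OAS1 (1.30) and GBP2 (1.23). The counting intervals of 32 genes lay wholly above 0 (74.4%, against 35.8% of all genes tested), that of PARP9 lay below 0, and those of 10 genes spanned 0. Among all 16210 genes tested, 5604 intervals lay wholly below 0 and 4801 spanned 0. The interval lay wholly past the threshold of 1 for 10 genes (5.13% of all genes tested), and 3 genes, OAS2, OAS3 and GBP1, were past a log2 fold change of 2 (2.09% of all genes tested). Low genes pass a fold threshold more readily. Among genes with a mean under 10 CPM, 7 of 21 interferon-stimulated genes (33.3%) were past the threshold against 12.8% of all such genes, and among those at 10 CPM or more 5 of 22 (22.7%) against 4.08%.

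**Figure D1:**
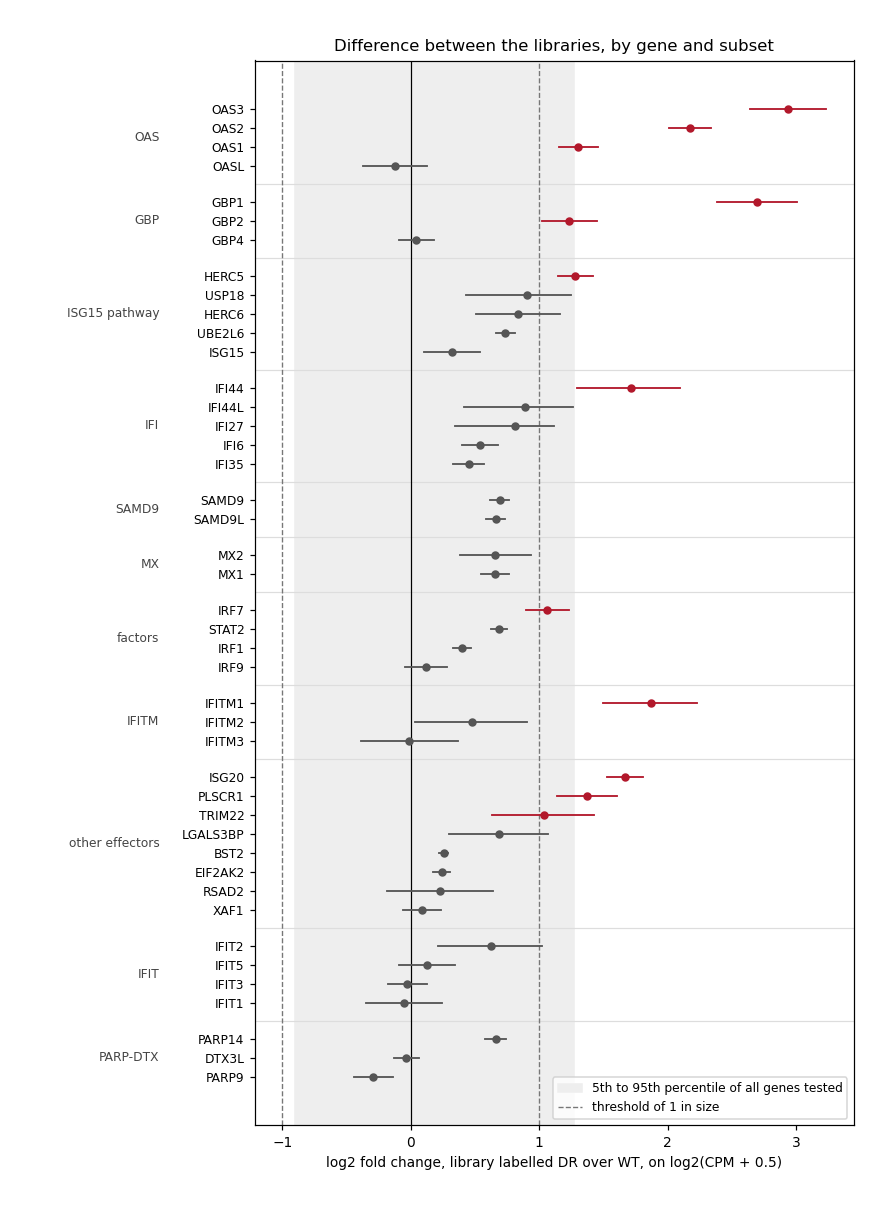
Log2 fold change of each of the 43 interferon-stimulated genes (x axis, library labelled DR over library labelled WT, on the log2 (CPM + 0.5) scale), grouped by subset in the order of the subset medians. Points are the values, lines the 95% counting intervals, and red the 12 genes at 1 or more. The grey band runs from the 5th to the 95th percentile of all genes tested (-0.90 to 1.27). OAS3, GBP1 and OAS2 lie farthest right. The IFIT and PARP-DTX subsets have medians near 0, with IFIT2 (0.62) and PARP14 (0.66) to the right and PARP9 (-0.29) to the left.

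The promoters show how widely the ISRE is shared between genes past the threshold and genes under it. RefSeq promoters (GRCh38.p14, 250 bases before to 50 after each annotated start) matched 34 of the 43 genes. The promoter set used held none for IFIT2, OAS2, OASL, GBP2, IFITM2, MX2, USP18, IRF7 and TRIM22. Of these, OAS2, GBP2, IRF7 and TRIM22 were past the threshold, and the shares by match leave them out. The core of the ISRE, GAAA followed by any 2 bases and GAAA, was searched on both strands, with overlapping matches counted. It occurred in 25 of the 34 genes (73.5%), against 4.38% of the 27305 genes with a promoter in RefSeq. The 160 bases before the start are printed 5′ to 3′ on the gene's strand for 6 genes past the threshold (OAS3 to PLSCR1) and 5 that were not (IFIT1 to BST2). Capitals mark the ISRE matches, which read TTTC, any 2 bases and TTTC where the element lies on the other strand, and a match that runs past the start, as at the end of IFITM1, is left in lower case. The coordinates are those of RefSeq, not of the build named for the deposited counts.
OAS3 (chr12:112938314-112938473, plus strand): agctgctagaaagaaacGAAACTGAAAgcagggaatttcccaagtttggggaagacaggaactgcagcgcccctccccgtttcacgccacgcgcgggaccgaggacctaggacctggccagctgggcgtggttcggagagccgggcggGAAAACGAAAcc
GBP1 (chr1:89065209-89065368, minus strand): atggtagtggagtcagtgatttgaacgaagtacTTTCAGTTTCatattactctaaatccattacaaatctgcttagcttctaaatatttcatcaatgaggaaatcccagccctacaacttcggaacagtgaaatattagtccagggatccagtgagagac
IFITM1 (chr11:313880-314039, plus strand): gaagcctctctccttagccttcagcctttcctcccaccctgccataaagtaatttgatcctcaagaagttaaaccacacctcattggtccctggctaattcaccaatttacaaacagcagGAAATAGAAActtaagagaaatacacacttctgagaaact
ISG20 (chr15:88638856-88639015, plus strand): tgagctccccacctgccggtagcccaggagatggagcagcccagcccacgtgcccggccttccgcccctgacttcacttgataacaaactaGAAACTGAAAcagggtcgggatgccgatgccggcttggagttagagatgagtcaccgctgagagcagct
HERC5 (chr4:88456959-88457118, plus strand): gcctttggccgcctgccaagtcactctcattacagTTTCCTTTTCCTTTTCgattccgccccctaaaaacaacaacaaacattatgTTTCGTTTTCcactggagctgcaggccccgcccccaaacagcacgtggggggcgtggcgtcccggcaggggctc
PLSCR1 (chr3:146544608-146544767, minus strand): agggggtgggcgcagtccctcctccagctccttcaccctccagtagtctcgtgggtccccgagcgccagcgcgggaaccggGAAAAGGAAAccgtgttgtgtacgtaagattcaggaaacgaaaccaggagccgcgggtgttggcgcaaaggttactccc
IFIT1 (chr10:89392463-89392622, plus strand): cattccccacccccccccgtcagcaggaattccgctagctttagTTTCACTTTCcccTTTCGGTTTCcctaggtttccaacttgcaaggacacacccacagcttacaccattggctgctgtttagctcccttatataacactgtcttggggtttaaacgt
IFIT3 (chr10:89327837-89327996, plus strand): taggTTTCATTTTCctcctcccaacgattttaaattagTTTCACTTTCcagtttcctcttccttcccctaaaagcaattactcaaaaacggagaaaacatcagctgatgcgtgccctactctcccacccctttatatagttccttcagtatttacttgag
IFITM3 (chr11:320861-321020, minus strand): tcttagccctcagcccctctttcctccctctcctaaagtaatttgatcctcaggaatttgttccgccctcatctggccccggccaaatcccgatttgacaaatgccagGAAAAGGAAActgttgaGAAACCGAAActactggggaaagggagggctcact
ISG15 (chr1:1013337-1013496, plus strand): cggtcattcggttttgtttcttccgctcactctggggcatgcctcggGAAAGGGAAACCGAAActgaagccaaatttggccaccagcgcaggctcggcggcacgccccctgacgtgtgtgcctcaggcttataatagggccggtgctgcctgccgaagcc
BST2 (chr19:17405631-17405790, minus strand): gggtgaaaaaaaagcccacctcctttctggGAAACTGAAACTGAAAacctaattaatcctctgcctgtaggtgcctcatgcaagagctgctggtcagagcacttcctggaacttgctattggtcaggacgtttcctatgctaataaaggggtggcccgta

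Of the 25 genes with a match, 7 were past the threshold (28.0%), and of the 9 without one OAS1 alone was. The median log2 fold change was 0.65 with a match and 0.66 without. For the longer ISRE, in which CT follows the core, the order of the shares turned, with 3 of 15 genes with a match past the threshold (20.0%) and 5 of 19 without one (26.3%), and medians of 0.26 and 0.69. Genes with a match to the core covered the whole range of differences, from PARP9 (-0.29) to OAS3 (2.94). IFITM1 has matches at positions -40 to -31 and -6 to 4 around its start, and IFITM3 at -52 to -43 and -35 to -26, while their log2 fold changes were 1.87 and -0.01. IFIT1 has matches at -116 to -107 and -103 to -94, and its log2 fold change was -0.05. ISG15, BST2 and HERC5 each carry a pair of overlapping matches, with log2 fold changes of 0.32, 0.26 and 1.28. Among the 12769 tested genes with a promoter outside the 43, 503 had an ISRE match and 54 of these were past the threshold upward (10.7%), against 833 of 12266 without one (6.79%). The gamma-activated site, TTCNNNGAA on both strands, occurred in 10 of the 34 genes (29.4%), against 9.38% of all genes with a promoter, and 3 of the 10 were past the threshold (OAS1, IFITM1 and PLSCR1), against 5 of the 24 without it (20.8%). Among tested genes outside the 43 the shares were 7.17% with the site and 6.93% without. A match is a run of letters, not a measured binding site.

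**Figure D2:**
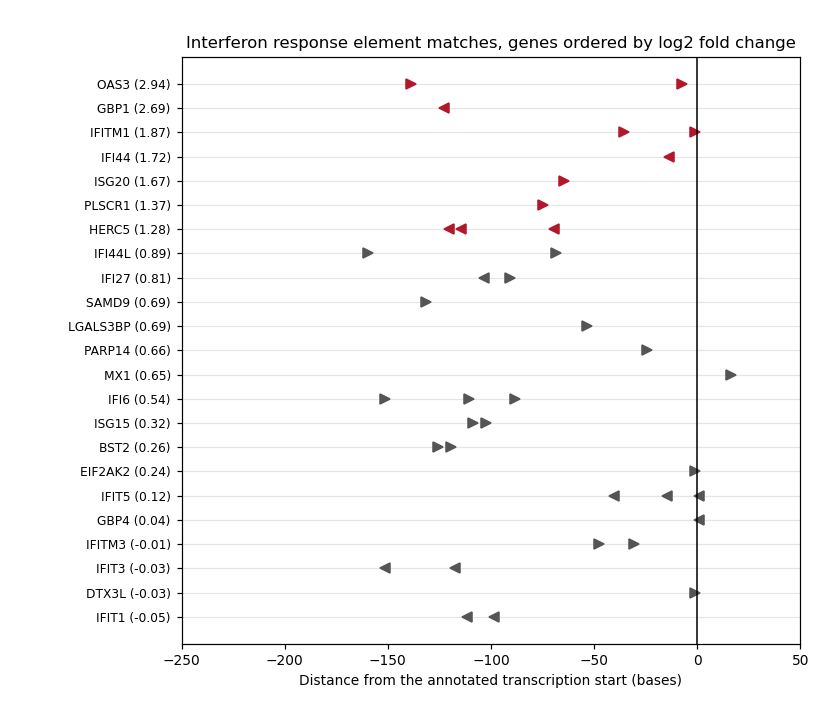
Position of each match to the ISRE core (x axis, bases from the annotated start) in the first listed promoter of the 23 genes that have one there, with the log2 fold change in brackets. Right-pointing symbols lie on the gene's strand and left-pointing ones on the other, red marks genes at 1 or more, and genes with matches are spread from OAS3 (2.94) to IFIT1 (-0.05).

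The OAS genes encode oligoadenylate synthetases, which sense double-stranded RNA and make the oligoadenylates that activate RNase L. OAS3 had 991 and 66 reads, or 17.8 and 1.89 CPM, and its log2 fold change of 2.94 (95% interval 2.64 to 3.24) was the widest of the 43 and lay at percentile 99.3 of all genes tested. OAS2 had 2305 and 307 reads (41.5 and 8.81 CPM), with a log2 fold change of 2.17 (2.01 to 2.34). OAS1 had 1706 and 423 reads (30.7 and 12.1 CPM), with a log2 fold change of 1.30 (1.16 to 1.46). These 3 genes are direct neighbours on chromosome 12 with no coding gene between them, and all were higher in the library labelled DR, with intervals that do not overlap one another. Their counts are whole numbers in both libraries. OASL, whose protein lacks synthetase activity and acts on RIG-I signaling, lies apart from them on the same chromosome. It had 277 and 191 reads (4.99 and 5.48 CPM), and its interval spanned 0 (log2 fold change -0.12, -0.37 to 0.13).

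Guanylate-binding proteins are large GTPases that attack pathogens and their vacuoles, and are known best as targets of interferon gamma. GBP1 had 749 and 58 reads (13.5 and 1.66 CPM), a log2 fold change of 2.69 (2.38 to 3.004). GBP2 followed with 768 and 195 reads (13.8 and 5.59 CPM), at 1.23 (1.02 to 1.45). GBP4 had 1108 and 675 reads (19.9 and 19.4 CPM), at 0.04 (-0.09 to 0.18). The 3 genes lie in 1 cluster on chromosome 1, and their differences ran from wide to near 0. All 3 have fractional counts in at least 1 library. How reads of similar genes were shared between them is not stated, and their values are uncertain for that reason. GBP3 and GBP5, outside the 43, had log2 fold changes of 0.89 (0.71 to 1.07) and -0.84 (-1.15 to -0.52).

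IFITM proteins are small membrane proteins that block the entry of enveloped viruses. IFITM1 had 278 and 35 reads (5.004 and 1.004 CPM), a log2 fold change of 1.87 (1.5002 to 2.23). IFITM2 had 62 and 23 reads (1.12 and 0.66 CPM), at 0.48 (0.03 to 0.90), and IFITM3 had 90 and 57 reads (1.62 and 1.64 CPM), at -0.01 (-0.39 to 0.37). IFITM1 stood apart from both neighbours in the cluster on chromosome 11. These paralogs are similar in sequence and all have fractional counts, so that the split of reads among them is uncertain.

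IFIT proteins bind foreign RNA ends and block its translation, and are known as strongly inducible genes of the program. Here IFIT1 had 185 and 121 reads (3.33 and 3.47 CPM), and IFIT3 had 846 and 542 reads (15.2 and 15.5 CPM). IFIT5 had 423 and 242 reads (7.61 and 6.94 CPM). The intervals of all 3 spanned 0, from -0.35 at the lowest bound to 0.34 at the highest. IFIT2, which binds RNA together with its paralogs, had 96 and 33 reads (1.73 and 0.95 CPM) and a log2 fold change of 0.62 (0.21 to 1.03). The cluster on chromosome 10 thus held 0 of 4 genes past the threshold, against 7.48% of all genes tested upward. With 4 genes, a count of 0 is near that share.

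**Figure D3:**
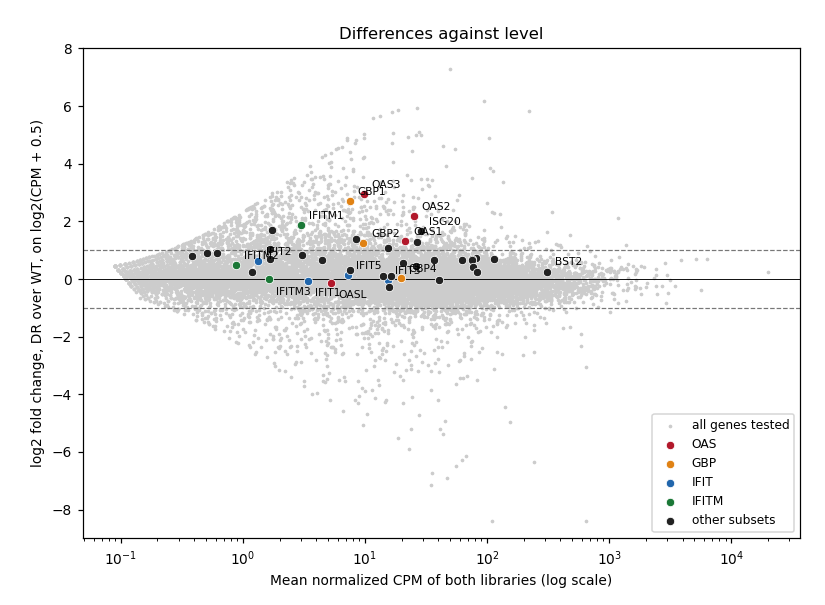
Log2 fold change (y axis, DR over WT, on the log2 (CPM + 0.5) scale) against the mean CPM of both libraries (x axis, log scale) for all 16210 genes tested (grey) and the 43 interferon-stimulated genes, with the OAS, GBP, IFIT and IFITM genes in colors and the other subsets in black. Dashed lines mark 1 and -1; OAS1, OAS2, OAS3, GBP1 and GBP2 lie above the upper line, and the IFIT genes lie between the lines at similar or lower levels.

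ISG15 is a ubiquitin-like protein that UBE2L6 and the ligase HERC5 attach to newly made proteins and USP18 removes. HERC5 had 2095 and 531 reads (37.7 and 15.2 CPM), a log2 fold change of 1.28 (1.15 to 1.42). The other 4 genes of this subset were also above 0 with their whole intervals but under the threshold. UBE2L6 had 5672 and 2130 reads (102.1 and 61.1 CPM), at 0.74 (0.66 to 0.81), and ISG15 had 465 and 230 reads (8.37 and 6.60 CPM), at 0.32 (0.11 to 0.54). HERC6, the neighbour of HERC5 on chromosome 4, had 224 and 71 reads, at 0.84 (0.51 to 1.17). USP18, which also blunts receptor signaling, had only 45 and 7 reads (0.81 and 0.20 CPM), at 0.90 (0.43 to 1.25). USP18 was thus the nearest gene under the threshold, and TRIM22, at 1.04, the nearest above it.

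Among the IFI genes, IFI44 had 163 and 19 reads (2.93 and 0.55 CPM), with a log2 fold change of 1.72 (1.30 to 2.10). Its neighbour IFI44L had 53 and 10 reads, at 0.89 (0.42 to 1.27). IFI27, a mitochondrial protein, had 35 and 5 reads, at 0.81 (0.35 to 1.12). IFI6, which protects cells from apoptosis, had 1346 and 576 reads (24.2 and 16.5 CPM), at 0.54 (0.40 to 0.68). IFI35 had 1701 and 776 reads (30.6 and 22.3 CPM), at 0.45 (0.33 to 0.57). All 5 intervals lay above 0, and the 3 genes with the fewest reads had the 3 widest differences.

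MX1 and MX2 are dynamin-like GTPases that trap viral nucleocapsids, and SAMD9 and SAMD9L restrict poxviruses and translation. Within each of these neighbouring pairs the counting intervals overlapped. MX1 had 2487 and 985 reads (44.8 and 28.3 CPM) and MX2 308 and 116 (5.54 and 3.33 CPM), with log2 fold changes of 0.65 (0.55 to 0.76) and 0.66 (0.38 to 0.94). SAMD9 had 5192 and 2010 reads and SAMD9L 5154 and 2039, at 0.69 (0.62 to 0.77) and 0.66 (0.59 to 0.73). Of 15 pairs of member genes that follow each other on a chromosome with at most 1 coding gene between them, the intervals overlapped in 5: IFIT3 and IFIT1, IFIT1 and IFIT5, MX2 and MX1, HERC6 and HERC5, SAMD9 and SAMD9L.

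Of the other effectors, 3 were past the threshold. ISG20, an exonuclease of RNA, had 2452 and 472 reads (44.1 and 13.5 CPM), a log2 fold change of 1.67 (1.53 to 1.81). PLSCR1, a phospholipid scramblase with antiviral action, had 684 and 155 reads (12.3 and 4.45 CPM), at 1.37 (1.14 to 1.61). TRIM22, a ubiquitin ligase, had 134 and 32 reads (2.41 and 0.92 CPM), at 1.04 with an interval of 0.64 to 1.43 that includes the threshold. LGALS3BP, a secreted galectin ligand, had 122 and 41 reads, at 0.69 (0.29 to 1.07).
BST2 (tetherin), which holds budding virions at the cell surface, had 18860 and 9898 reads (339.4 and 283.9 CPM), at 0.26 (0.22 to 0.29). EIF2AK2, the kinase PKR that halts translation on double-stranded RNA, had 4950 and 2629 reads (89.1 and 75.4 CPM), at 0.24 (0.17 to 0.31). The intervals of RSAD2 (viperin, 74 and 37 reads) and XAF1 (an antagonist of XIAP, 934 and 550 reads) spanned 0, with log2 fold changes of 0.23 and 0.09.

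PARP9 and DTX3L form a complex that modifies histones, and PARP14 is another ADP-ribosyltransferase of the same region on chromosome 3. PARP9 had 792 and 612 reads (14.3 and 17.6 CPM), and it was the only one of the 43 whose interval lay below 0, at -0.29 (-0.44 to -0.14). DTX3L had 2200 and 1414 reads (39.6 and 40.6 CPM), at -0.03 (-0.13 to 0.06). PARP14 had 4253 and 1681 reads (76.5 and 48.2 CPM), at 0.66 (0.58 to 0.74).

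The factors that drive the program differed unequally. IRF7, the inducible amplifier of interferon genes, had 1169 and 342 reads (21.0 and 9.81 CPM), a log2 fold change of 1.06 with an interval of 0.90 to 1.23 that includes the threshold. STAT2 had 7849 and 3055 reads (141.3 and 87.6 CPM), at 0.69 (0.63 to 0.75). IRF1 had 4902 and 2325 reads (88.2 and 66.7 CPM), at 0.40 (0.33 to 0.47). IRF9, the DNA-binding partner of STAT2, had 811 and 468 reads (14.6 and 13.4 CPM), and its interval spanned 0 (0.12, -0.04 to 0.28).

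**Figure D4:**
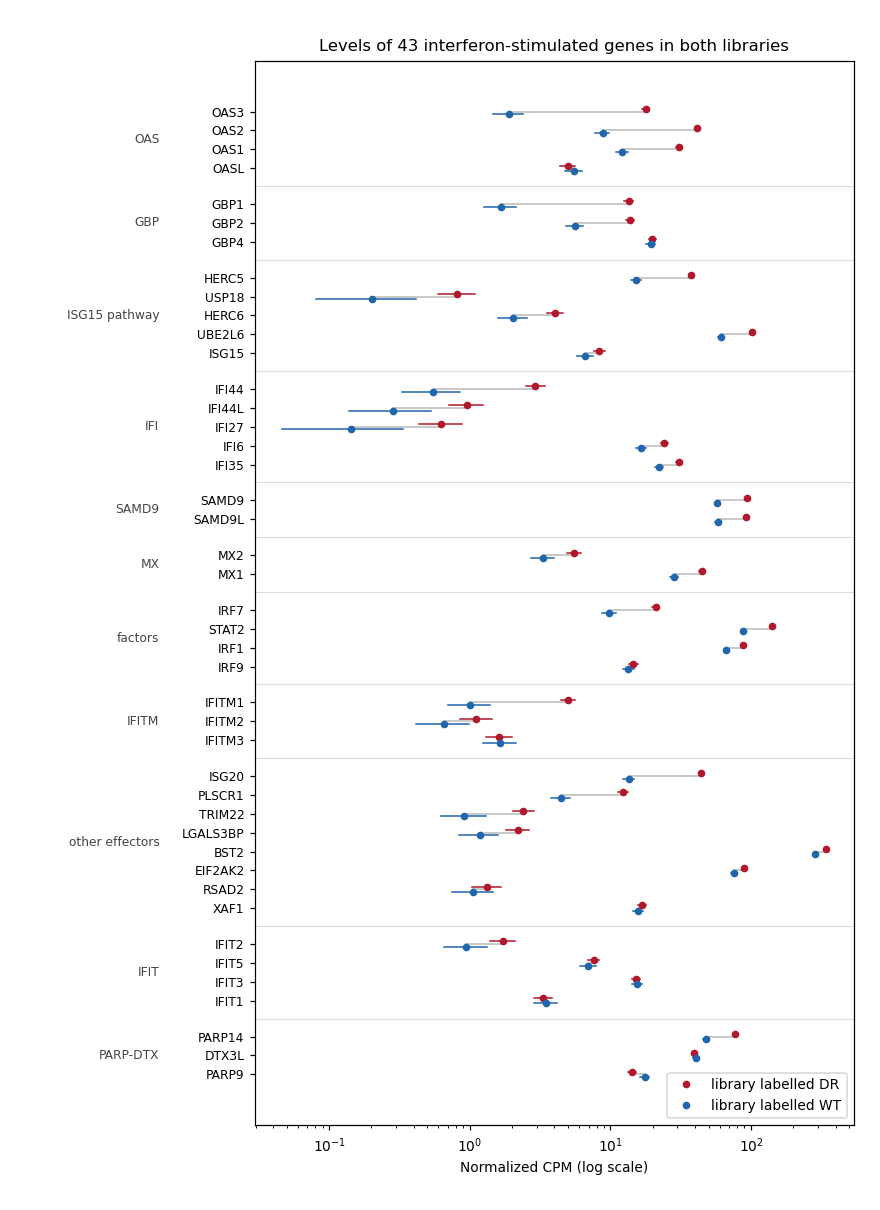
Normalized CPM (x axis, log scale) of each of the 43 interferon-stimulated genes in the library labelled DR (red) and the library labelled WT (blue), with exact 95% Poisson intervals of the counts as lines, to be compared within a gene. The libraries stand farthest apart for OAS3 (17.8 and 1.89 CPM) and GBP1 (13.5 and 1.66 CPM), and the points nearly coincide for IFIT1, IFIT3 and GBP4.

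Levels were compared between genes per kilobase of the deposited gene length. BST2 was highest in both libraries, at 323.9 and 270.9 CPM per kilobase, followed by UBE2L6 at 78.8 and 47.2. IFI44L was lowest in both, at 0.268 and 0.0806. The median of the 43 genes was 6.13 and 3.14 CPM per kilobase, against 6.46 and 6.40 for all genes tested, so 21 and 15 of the 43 lay above the median of all genes. OAS3 moved from rank 38 in the library labelled WT to rank 28 in the library labelled DR, GBP1 from 33 to 24 and OAS2 from 24 to 12. Many ranks are not resolved. Of the 42 pairs of neighbours in the order, the 95% Poisson intervals of the levels overlapped in 25 (DR) and 37 (WT), as for ISG20, IRF1 and STAT2 in the library labelled DR (34.9, 34.7 and 34.1).

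The signaling genes of the pathway were described from a separate list. Of 43 listed genes 33 were in the table, 31 had counts and 23 were tested, and the 12 without a count were all ligands. IRF5 alone was past the threshold, with 5812 and 1739 reads and a log2 fold change of 1.06 (0.98 to 1.14), and 0 were lower by as much. This is 4.35% of the 23, against 7.48% of all genes tested upward and 4.16% downward. Of the 21 interferon genes listed 9 had counts, all of them low. IFNB1 had 1 and 0 reads, the alpha interferon IFNA21 had 1 and 0, IFNL1 had 0 and 5, and IFNG, the only ligand that passed the filter, had 23 and 13 (0.41 and 0.37 CPM). In these libraries 3 reads are worth 0.0540 and 0.0861 CPM, and the other ligands, with at most 5 reads in a library, were too low to compare.
The receptors were present in both libraries. IFNAR1 had 138.1 and 116.1 CPM, at a log2 fold change of 0.25 (0.19 to 0.30), and IFNAR2 had 86.9 and 116.2 CPM, at -0.42 (-0.48 to -0.36), so the subunits of the alpha and beta interferon receptor differed in opposite directions. IFNGR1 had 21.5 and 20.3 CPM, at 0.08 (-0.05 to 0.21), and IFNGR2 75.2 and 45.8 CPM, at 0.71 (0.63 to 0.79). For the lambda receptor, IFNLR1 was at -0.22 (-0.33 to -0.11) and IL10RB, shared with other cytokines, at 0.80 (0.70 to 0.91).
The kinases JAK1, JAK2 and TYK2 had log2 fold changes of 0.27 (0.22 to 0.32), 0.49 (0.31 to 0.67) and -0.08 (-0.13 to -0.03). SOCS1, an inhibitor of these kinases that interferon induces, had 171 and 46 reads, at 0.98 (0.61 to 1.34). It was the highest of the 7 inhibitors listed, whose median was 0.28. The lowest of the 7, PTPN11, was at -0.39 (-0.43 to -0.35). The median of the 23 tested pathway genes was 0.22.

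A further list of 44 interferon-induced genes outside the 43, which shares 1 gene with the pathway list, had 42 genes tested. Of these, 4 were past the threshold upward (9.52%, against 7.48% of all genes tested). Another 2 of the 42 were past it downward, against 4.16% of all genes tested. The median log2 fold change was 0.40. The chemokines CXCL10 (5762 and 1106 reads) and CXCL9 (3007 and 705 reads), which draw T cells, were at 1.69 (1.60 to 1.79) and 1.40 (1.28 to 1.52). APOL1, a pore-forming apolipoprotein, was at 1.36 (1.26 to 1.45) and the helicase HELZ2 at 1.15 (1.04 to 1.27). The helicase-like gene DDX60L had 45 and 665 reads, at -3.90 (-4.18 to -3.61), and its paralog DDX60 had 28 and 75, at -1.40 (-1.77 to -1.0001). The share past the threshold in this list was near the background. However, 34 of the 42 genes lay above 0 (81.0%, against 51.1% of all genes tested) and 8 below. The intervals of 32 lay wholly above 0, against 35.8% of all genes tested. Those of 7 lay wholly below, against 5604 of all 16210 genes tested. The shift of the list's median was smaller than that of the 43 genes. The difference between the lists was not tested.

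**Figure D5:**
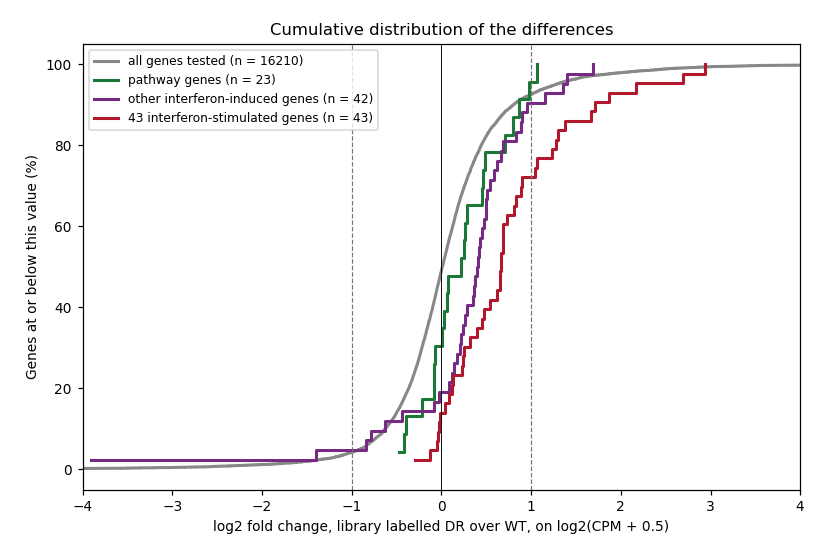
Cumulative share of genes (y axis, percent) at or below each log2 fold change (x axis, DR over WT, on the log2 (CPM + 0.5) scale, drawn from -4 to 4) for the 43 interferon-stimulated genes (red), the 42 other interferon-induced genes (purple), the 23 pathway genes (green) and all 16210 genes tested (grey). The red curve lies to the right of the others over most of its range, and its median is 0.66 against 0.40, 0.22 and 0.01.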

How the data were processed

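Per library, the authors deposited estimated counts for 18930 genes in 1 table, not scaled for library size, with gene lengths in bases and their own log2 ratio, p-value, q-value and annotation. Those comparison columns were not used. The submitters' processing notes name Bowtie 0.12.2 and hg19, and the counting tool is not given in the sources used here. Estimated counts are fractional in either library for 9108 genes, 24 of the 43 among them, and were rounded to whole numbers. For 663 genes the table holds no count. Counts summed to 54878355 (DR) and 35294670 (WT).

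Library sizes were scaled by TMM (edgeR 4.0.16, R 4.3.3; factors 1.01 and 0.988), and genes were kept at a summed count of 10 or more (16210 genes tested). Log2 fold changes used a pseudocount of 0.5 CPM, and a gene was past the threshold at 1 in size. With 1 library per group no test across replicates could be fitted. Intervals are exact 95% Clopper-Pearson bounds on the fraction of a gene's reads that fell in DR, carried to the log2 (CPM + 0.5) scale, and 95% Poisson intervals for levels. Reads without molecular identifiers are not independent molecules, so intervals cover counting error only. The calculation was tested on simulated Poisson counts of genes with many reads. Interval coverage was checked there with a far smaller pseudocount, so the intervals of low genes were not tested. Python 3.11.15, SciPy 1.17.1, NumPy 2.4.6, pandas 2.3.3 and matplotlib 3.10.9 were used.

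The 43 genes, the subsets and the other lists were chosen with earlier results of these data known. All 43 are described, and from the other lists the genes past the threshold, the receptors and the kinases. A gene of the pathway is not reported here. GBP3, GBP5, SOCS1, PTPN11 and the ligands were named after their values were seen. Promoters are those of RefSeq (GRCh38.p14), matched by NCBI Gene ID. Alternatives were DESeq2 1.42.0 size factors, unscaled totals, dropping the filter, a minimum of 50 reads, pseudocounts of 0.1 and 5 CPM, a log2 threshold of 2, the whole interval past the threshold, levels without division by length, and a longer ISRE. Leaving out genes with fractional counts was added after seeing the data.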

Additional observations from a re-analysis of the deposited data

How the results depend on the processing

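No paired analysis was possible because each group holds 1 library, and for the same reason no library could be left out. The 12 genes past the threshold upward stayed 12 with DESeq2 size factors, library totals, no filter and at least 50 reads (against 6.63% to 8.12% of all genes). They were 15 with a pseudocount of 0.1 CPM (IFI27, IFI44L and USP18 in addition, against 10.6% of all genes) and 10 with the whole interval past the threshold (without IRF7 and TRIM22, against 5.13%). They were 6 with 5 CPM, which shrinks low genes (OAS1, OAS2, OAS3, GBP1, HERC5 and ISG20, against 2.61% of all genes), 3 at a log2 threshold of 2 (OAS2, OAS3 and GBP1, against 2.09%), and 7 of 19 without genes with fractional counts, where fewer genes are tested (against 9.44%). In each of these settings, 0 of the interferon-stimulated genes tested were past the threshold downward, against 1.17% to 5.60% of all genes.

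With 5 CPM the median log2 fold change of the 43 genes was 0.34, and the subset medians were 1.39 (OAS), 0.83 (GBP), 0.46 (MX), 0.39 (IFI), 0.36 (ISG15 pathway) and 0.24 (other effectors). With 0.1 CPM the IFI median was 1.45. Pathway genes past the threshold upward were 2 with library totals and with 0.1 CPM, and 0 with 5 CPM, a threshold of 2 and the whole interval, since IRF5 lies at 1.06. The other interferon-induced genes past it were 0 upward and 1 downward at a threshold of 2, and 1 downward with 5 CPM. Without division by length, 6 of the 10 highest genes of the library labelled WT were also among the highest 10. The longer ISRE (the core followed by CT) occurred in 15 of the 34 genes. Among these settings 0 called values changed sign.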
